A study of Sus scrofa with 4 samples.

Results

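Solute carriers are the membrane proteins, named SLC, that move ions, nutrients and metals across membranes. The carriers described here were all genes of the counts table whose symbol begins with SLC and a digit, apart from the mitochondrial SLC25A family. Of the 4381 gene symbols in the table, 101 began in this way, 13 of them were SLC25A genes, and 88 were kept. Among the 88 were 86 carriers from 36 families and 2 scaffold proteins, SLC9A3R1 and SLC9A3R2, that carry an SLC symbol but transport nothing themselves. The table holds carriers of the cell surface and of internal membranes alike. From textbook knowledge, 56 of them work mainly at the cell surface, 23 in organelles, and 7 in both or in a place that was not assigned, so they are called solute carriers and not plasma membrane carriers.

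RNA was sequenced from porcine oocytes at the M II stage, the metaphase arrest at which the mature egg waits for sperm, in 2 control libraries and 2 SIRT6-inhibited libraries. Cumulus cell-oocyte complexes were taken from follicles of abattoir ovaries and matured in vitro for 42 to 44 h. The SIRT6-inhibited group received SIRT6-IN-1, which enters cells and inhibits the nuclear deacylase SIRT6, at 100 μM, diluted from DMSO to at most 0.1% of the medium, and the control group was matured without the inhibitor, with or without DMSO, which is not given in the sources used here. Each group had 100 oocytes. Nothing says how they were shared between libraries or whether the libraries came from separate cultures or animals, so p-values measure only the spread between these libraries, which may be technical. Counts on the listed genes summed to 4646129 in control library 1 and 3405960 in control library 2, and to 3239200 and 4972602 in the respective SIRT6-inhibited libraries. The table lists part of the porcine genes, so these totals are not the whole sequencing depth.

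A fully grown oocyte transcribes little and matures on messenger RNA stored during growth, so a transcript found at M II is mostly one that was stored and not yet degraded. The oocyte takes up amino acids, pyruvate, vitamins and metals partly through its own carriers and partly through gap junctions with the cumulus cells around it. Zinc is accumulated during meiotic maturation and released at fertilization, taurine and other osmolytes hold cell volume, and bicarbonate carriers help to set the pH inside the cell.

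The libraries carried oocyte transcripts and very little from other cells. All 12 oocyte markers that the table lists, out of 17 looked for, had at least 10 counts in both control libraries. Their summed level was 78364 and 79883 normalized CPM (CPM, counts relative to the library total, after scaling by TMM factors) in the controls and 77616 and 78952 in the SIRT6-inhibited libraries, led by KPNA7. Of the 12 markers, 2 were lower in the SIRT6-inhibited libraries with unadjusted p-values under 0.05, GDF9 and ZP2, and 0 were higher, where 5.99% of all tested genes were called lower and 3.06% higher. Cumulus and granulosa markers were listed for 18 of 21 genes, and FSHR, LHCGR, AMH, AMHR2 and TNFAIP6 had 0 counts in every library. The summed level of the 18 was 207 and 226 normalized CPM in the controls and 101 and 206 in the SIRT6-inhibited libraries, led by VCAN. Without VCAN, a sum added after the values were seen, it was 125 and 90.0 in the controls and 62.4 and 64.1 in the SIRT6-inhibited libraries, so both of these were low. Of the 7 cumulus markers tested, 6 had lower estimates, and in 4, INHBA, INHBB, PTGS2 and SERPINE2, both SIRT6-inhibited libraries lay below both controls, where 22.2% of all tested genes did. In 1, CYP11A1, both lay above both controls, where 17.9% did. By edgeR's test 0 of the 7 had adjusted and 0 had unadjusted p-values under 0.05, and PTGS2 passed the filter on low counts only through the control group. Of 7 blood markers 4 were listed, and only CD68 had any count. In such pooled oocytes, fewer cells of a type and less RNA per cell cannot be told apart.

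Of the 88 genes, 44 were present in control oocytes, where present means at least 10 counts in both libraries of a group. This was 50.0%, against 48.1% of all listed genes. In SIRT6-inhibited oocytes 43 were present, or 48.9%, against 44.7% of all listed genes. Both groups shared 40 of them, which is 90.9% of those present in control and 93.0% of those present in SIRT6-inhibited oocytes, against 87.2% and 94.0% of all listed genes. The 44 carriers came from 26 families and included 25 of the 56 cell surface carriers, 14 of the 23 organelle carriers and 5 of the other 7. A further 22 genes had some counts without being present in control, and 22 had 0 counts in all 4 libraries, or 25.0%, against 33.3% of all listed genes. A count of 0 still allows up to 3 counts, which was between 0.603 and 0.926 CPM in these libraries, and such floors cover counting error only, since PCR copies of a molecule are counted as reads.

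The classes differed in how many of their carriers were present. Trace metals and magnesium had 10 of 15 present in control oocytes, inorganic ions and pH 8 of 13, and amino acids 9 of 16. Nucleotide sugars and acetyl-CoA had 3 of 5, vitamins, choline and inositol 3 of 6, and peptides and organic acids 2 of 3 each. Only 2 of 7 carriers of sugars and sugar phosphates were present, SLC37A3 and SLC5A10. Neither of the 2 listed nucleoside carriers was present, and 0 of the 10 carriers of lipids, bile acids and organic ions were. A last class of mixed or uncertain substrates had 5 of 6 present. The plot of listed and present carriers shows the same classes in SIRT6-inhibited oocytes, where only the trace metal class had a different number, 9.

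**Figure D1:**
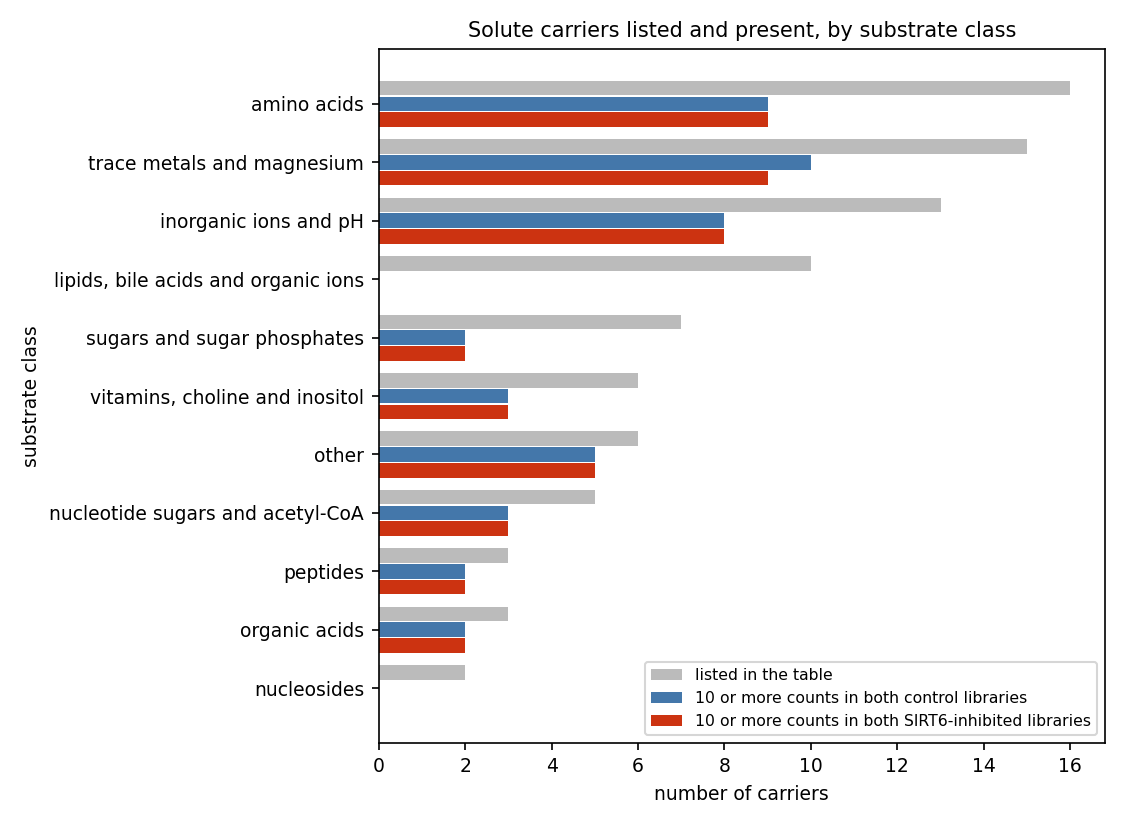
Horizontal bars give, for each substrate class, the number of carriers listed in the table (grey), present in both control libraries (blue) and present in both SIRT6-inhibited libraries (red), with at least 10 counts as the threshold. The 10 carriers of lipids, bile acids and organic ions have no blue or red bar, and trace metals have 10 carriers present in control and 9 in SIRT6-inhibited oocytes.

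Families were represented unevenly. All 4 listed SLC26 anion carriers, 6 of 8 SLC30 zinc carriers and 4 of 6 SLC35 carriers were present in control oocytes. None of the 6 SLC22 carriers of organic ions was, and 4 of them had 0 counts in every library. In the SLC7 family 3 of 7 were present, SLC7A1, SLC7A3 and SLC7A7, and the other 4 had 0 counts in every library. One of these 4 was SLC7A9, the light subunit that pairs with SLC3A1 to carry cystine and basic amino acids in the kidney. SLC3A1 itself had 768 and 495 counts in the controls and 485 and 798 in the SIRT6-inhibited libraries, so the transcript of the heavy subunit was present in all 4 libraries without that of its usual partner.

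The groups were then compared for every gene with enough counts. Of the 88 genes, 51 were among the 2387 genes tested, 44 of them present in control, 3 present only in SIRT6-inhibited oocytes and 4 present in neither group. SLC5A10 and SLC30A7 passed the filter on low counts only through the control group, and SLC52A2 only through the SIRT6-inhibited group, so for these 3 a difference was built into their being tested. P-values of edgeR's quasi-likelihood test, adjusted by the Benjamini-Hochberg method, were under 0.05 for 0 carriers, as for 0% of all tested genes, and the lowest was 0.460. DESeq2's Wald test gave 0 carriers an adjusted p-value under 0.05, where 1.68% of all tested genes had one. At an unadjusted p-value under 0.05, edgeR's test called 7 carriers, or 13.7%, where 9.05% of all tested genes were called, and DESeq2's test called 7, where 9.93% of all tested genes were called. Of these 7, 6 were the same, and the other was SLC5A10. Of the 7 carriers in edgeR's test, 5 were higher, SLC52A2 among them, where 3.06% of all tested genes were called higher, and 2 were lower, where 5.99% were called lower. Among the 40 carriers with at least 10 counts in every library, 3 were called higher and 3 lower, SLC7A3 being the third, where 11.4% of such genes were called. With library totals as the only scaling, 3 were called higher and 2 lower, and 9.30% of all tested genes were called. Without control library 1 only 2 of 61 carriers were called, SLC31A2 and SLC6A6, and the share of all tested genes called was 5.80%. Over the 51 carriers the median log2 fold change was -0.16, against -0.04 over all tested genes, and 29 carriers, or 56.9%, had a lower estimate, against 52.8% of all tested genes. Without control library 2 the median was 0.11.

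The order of the libraries gave a similar count in each direction. Among the 48 carriers other than SLC5A10, SLC30A7 and SLC52A2, both SIRT6-inhibited libraries lay below both controls in 10, or 20.8%, where 19.9% of the 2285 tested genes that likewise did not pass the filter through 1 group only did. In 12, or 25.0%, both lay above both controls, where 17.6% of those genes did. With library totals as the only scaling it was 11 lower and 9 higher, or 22.9% and 18.8%, against 23.1% and 14.4% of those genes. Among the 40 carriers with at least 10 counts in every library, 9 lay lower and 11 higher, where 41.8% of such genes lay lower or higher. The plot of carriers among all tested genes shows that most carriers lie within the cloud of other genes at their level, with SLC6A6, SLC4A4, SLC26A6 and SLC31A2 at its edges among the genes with more counts.

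**Figure D2:**
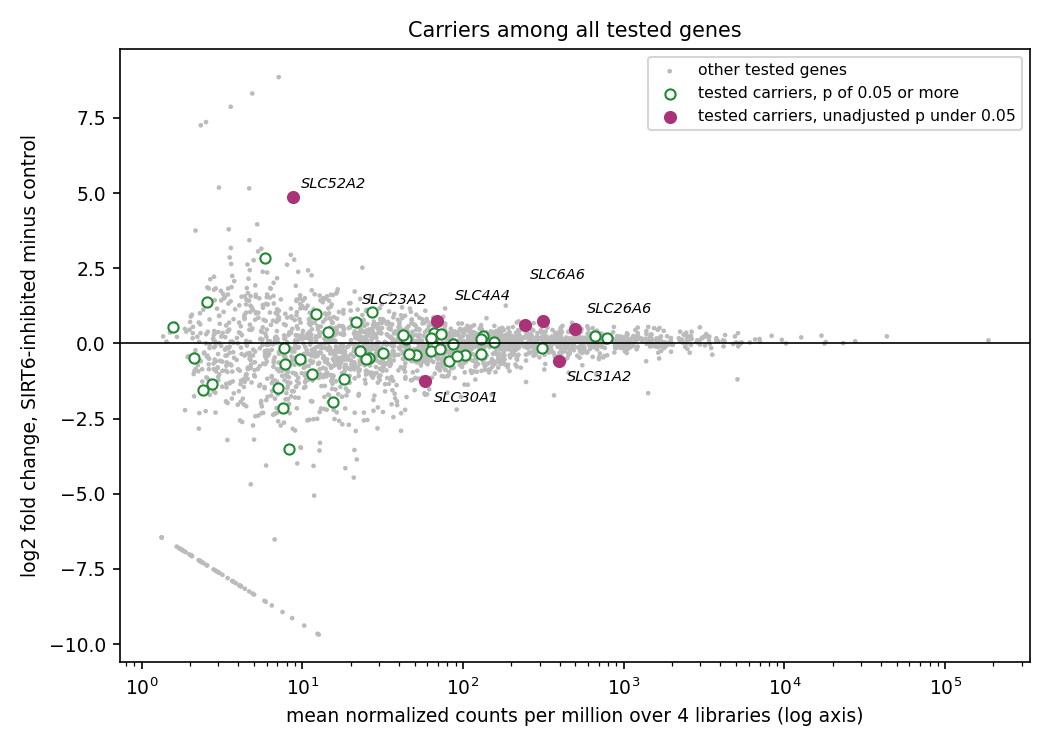
Each point is a tested gene, with its mean normalized CPM over the 4 libraries on a log axis and its log2 fold change, SIRT6-inhibited minus control. Grey points are the other tested genes, open green circles carriers with an unadjusted p-value of 0.05 or more, and purple points the 7 carriers under 0.05, of which 5 lie above 0 and 2 below.

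SLC6A6, the sodium- and chloride-coupled carrier of taurine, had the smallest p-value of all the carriers. Its level was 252 normalized CPM in control library 1, 215 in control library 2, 401 in SIRT6-inhibited library 1 and 388 in SIRT6-inhibited library 2. Both SIRT6-inhibited libraries were above both controls, by more than the distance between libraries of a group. The group means were 233 ± 26.4 and 395 ± 9.39 normalized CPM (SD of 2 libraries each). The log2 fold change was 0.76 with a standard error of 0.17 and an unadjusted p-value of 0.00375. By edgeR's quasi-likelihood test and the Benjamini-Hochberg method over all tested genes, the adjusted p-value was 0.460, and it was 0.0345 without a filter on low counts, where 1.47% of all genes passed, in a range of 0.0345 to 0.950 over all the alternatives. The unadjusted p-value remained under 0.05 without each library in turn and in each of the 7 other fits.

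Trace metal carriers included both of the carriers that were called lower, 2 of the 10 tested, where 5.99% of all tested genes were called lower. SLC31A2, a copper carrier of endosomes and lysosomes also known as CTR2, had 434 and 506 normalized CPM in the controls and 341 and 292 in the SIRT6-inhibited libraries. All SIRT6-inhibited values were below all control values. The log2 fold change was -0.57 with a standard error of 0.17 and an unadjusted p-value of 0.0136. It had a p-value of 0.0875 without control library 2 and of 0.0754 without SIRT6-inhibited library 2. SLC30A1, the zinc exporter of the cell surface, had 99.5 and 64.7 normalized CPM in the controls and 28.3 and 40.4 in the SIRT6-inhibited libraries. Again the groups did not overlap, but the controls differed from each other by more than the lower control differed from the higher SIRT6-inhibited library. Its log2 fold change was -1.26 with a standard error of 0.42 and an unadjusted p-value of 0.0214, which became 0.182 without control library 1.

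SLC31A1, or CTR1, takes copper up at the cell surface and is the neighbour of SLC31A2 on the chromosome, with FKBP15 between them in the RefSeq annotation of Sscrofa11.1. It had 104 and 107 normalized CPM in the controls and 70.2 and 87.4 in the SIRT6-inhibited libraries. Both SIRT6-inhibited libraries were below both controls, but the log2 fold change, -0.42 ± 0.29 (SE), had an unadjusted p-value of 0.185. Thus both copper carriers had lower values in both SIRT6-inhibited libraries. Of the genes that did not pass the filter through 1 group only, 19.9% did. SLC31A2 was called lower, where 5.99% of all tested genes were.

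Zinc is moved out of the cytosol by most of the SLC30 family, and into it by the SLC39 family. Of the 5 SLC30 carriers tested apart from SLC30A7, 4 had lower estimates. Of the 2285 genes that did not pass the filter through 1 group only, 1185 did. Of the 5 tested apart from SLC30A7, 3 lay lower without overlap between the groups, or 2 with RLE size factors, where 19.9% and 19.0% of the genes that did not pass the filter through 1 group only did. SLC30A4 and SLC30A5, which load zinc into vesicles and the secretory pathway, had log2 fold changes of -0.16 and -0.34 with standard errors of 0.17 and 0.43. In SLC30A4 the SIRT6-inhibited libraries had 270 and 314 normalized CPM, the second of them just under the lower control at 317. SLC30A6 had a log2 fold change of -0.58 ± 0.40 (SE), and its groups overlapped. SLC30A7 had 19 and 11 counts in the controls and 8 and 0 in the SIRT6-inhibited libraries, which is too few to show a difference, and it passed the filter only through the control group. The exception was SLC30A9, a zinc carrier of mitochondria, which was at 71.6 and 58.8 normalized CPM in the controls and at 89.1 and 73.7 in the SIRT6-inhibited libraries, with a log2 fold change of 0.32 and a standard error of 0.32. SLC39A7, which releases zinc from the endoplasmic reticulum, had a log2 fold change of 0.13 ± 0.45 (SE). For iron, SLC11A2, the divalent metal carrier DMT1, had 142 and 142 counts in the controls and 39 and 211 in the SIRT6-inhibited libraries, so its SIRT6-inhibited libraries lay on either side of the controls.

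Of the 9 trace metal carriers tested apart from SLC30A7, 7 had lower estimates with each of the 3 scalings (TMM, RLE size factors, library totals only). Of the 2285 genes that did not pass the filter through 1 group only, 1185, 1140 and 1312 did with the respective scalings. Including SLC30A7, the median log2 fold change of the 10 tested was -0.38, against -0.04 over all tested genes. Both SIRT6-inhibited libraries lay below both controls in 5 of the 9 apart from SLC30A7, and in 4 with RLE size factors, where 19.9% and 19.0% of the genes that did not pass the filter through 1 group only did. When each library was left out in turn, added after the values were seen, it was 5 to 7 of these 9, where 33.3% to 37.7% of those genes did. This could hardly give fewer than 5, because groups without overlap stay so with fewer libraries, apart from changes in scaling. It is therefore no check on the 5. The summed level of the 15 listed carriers was 1289 and 1277 normalized CPM in the controls and 997 and 984 in the SIRT6-inhibited libraries. No test was made of this sum, and the sums of 8 of the 11 classes of carriers did not overlap between the groups, 4 of them higher and 4 lower. These sums hold genes that passed the filter through 1 group only. SLC30A7 is in that of trace metals, SLC5A10 in that of sugars and SLC52A2 in that of vitamins, so the count of 8 depends in part on such genes. The summed cumulus markers other than VCAN were also lower in both SIRT6-inhibited libraries, at 62.4 and 64.1 normalized CPM against 125 and 90.0. VCAN was left out of this sum after the values were seen. With it the sum was 101 and 206 normalized CPM in the SIRT6-inhibited libraries, against 207 and 226 in the controls. A link between cumulus markers and trace metal carriers was not tested.

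**Figure D3:**
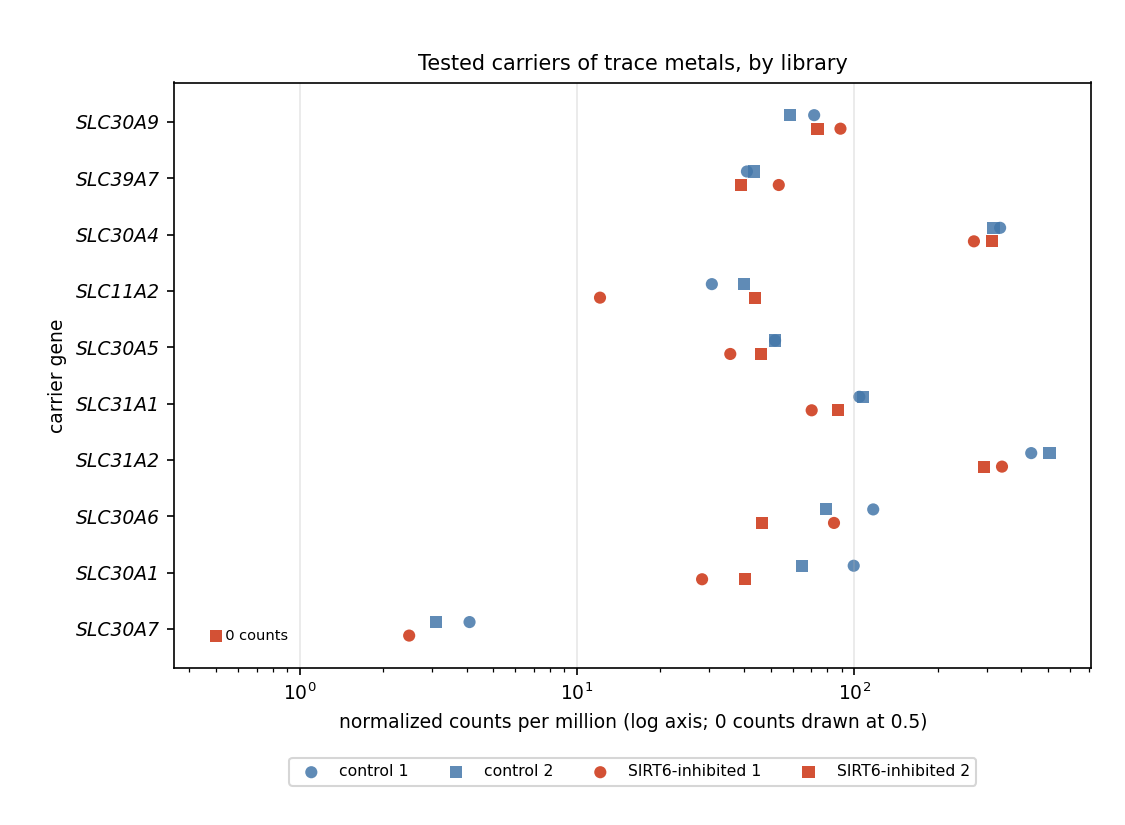
Normalized CPM on a log axis of the 10 tested trace metal carriers in each library, ordered by log2 fold change, with controls in blue and SIRT6-inhibited libraries in red, and circles for library 1 and squares for library 2. Red lies left of blue without overlap in 6 rows, SLC30A1, SLC30A4, SLC30A5, SLC30A7, SLC31A1 and SLC31A2. With RLE size factors it is 5, and 22.2% and 21.4% of all tested genes lay so with the 2 scalings. SLC30A7 passed the filter on low counts only through the control group. Red lies right of blue in SLC30A9, where it does overlap with library totals as the only scaling.

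Carriers of inorganic ions and pH lay mostly on the other side. SLC4A4, the electrogenic sodium-bicarbonate cotransporter NBCe1, had 178 and 211 normalized CPM in the controls and 305 and 284 in the SIRT6-inhibited libraries. Both SIRT6-inhibited libraries were above both controls. The log2 fold change was 0.60 with a standard error of 0.19 and an unadjusted p-value of 0.0189, which was 0.108 without control library 1 and 0.0710 without SIRT6-inhibited library 1. SLC26A6, an exchanger of chloride for bicarbonate or oxalate, had 421 and 408 normalized CPM in the controls and 655 and 494 in the SIRT6-inhibited libraries. Control values were close together and the SIRT6-inhibited libraries were both higher, library 1 by more. Its log2 fold change was 0.47 with a standard error of 0.18 and an unadjusted p-value of 0.0334. This became 0.0804 without control library 1, 0.0993 without control library 2, and 0.313 without SIRT6-inhibited library 1, where the log2 fold change was 0.25. It was 0.0553 with library totals as the only scaling.

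All 4 listed members of the SLC26 family were present, and they did not all lie on one side. SLC26A11, a sulphate and chloride carrier, had 630.3 and 575 normalized CPM in the controls and 711 and 726 in the SIRT6-inhibited libraries, with a log2 fold change of 0.25, a standard error of 0.13 and an unadjusted p-value of 0.0900. SLC26A5, known as prestin, the motor protein of outer hair cells, had 52.6 and 64.1 normalized CPM in the controls and 71.4 and 76.2 in the SIRT6-inhibited libraries. SLC26A3, a chloride-bicarbonate exchanger of the intestine, was at 13.2 and 37.7 in the controls and at 9.31 and 12.9 in the SIRT6-inhibited libraries, below both controls but with the controls further from each other than the group means were. With each of the 3 scalings, 3 members lay above both controls in both SIRT6-inhibited libraries and SLC26A3 below, where 14.4% to 18.5% of the genes that did not pass the filter through 1 group only lay above and 19.0% to 23.1% below.

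Among the other ion carriers, SLC12A4, the potassium-chloride cotransporter KCC1, had 137 and 305 counts in the controls and 152 and 196 in the SIRT6-inhibited libraries, which lay between the controls in normalized level too. SLC24A2, a sodium-calcium-potassium exchanger, had a log2 fold change of 0.70 ± 0.78 (SE). Lower estimates were found for 52.8% of all tested genes with TMM factors. Of the 9 ion carriers tested, 6 had higher and 3 lower estimates with each of the 3 scalings. In 5 both SIRT6-inhibited libraries lay above both controls, or in 4 with library totals as the only scaling, where 17.6% and 14.4% of the genes that did not pass the filter through 1 group only did. The summed level of the 13 listed ion carriers was 1391 and 1472 normalized CPM in the controls and 1908 and 1721 in the SIRT6-inhibited libraries.

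**Figure D4:**
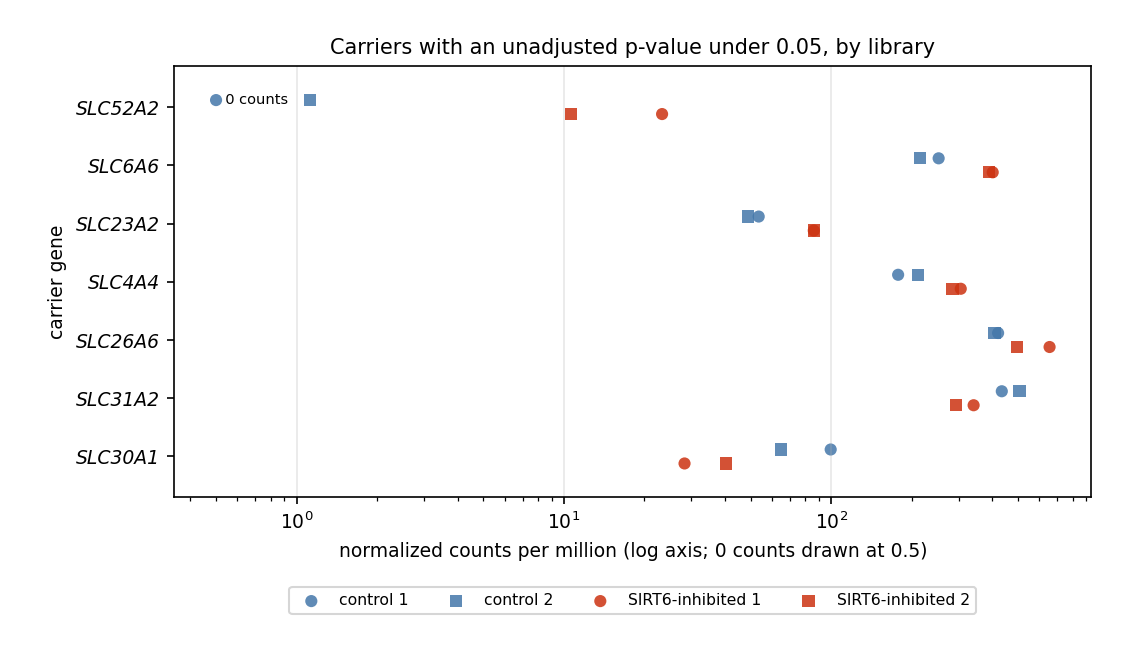
Normalized CPM on a log axis of the 7 carriers with an unadjusted p-value under 0.05 in each library, with controls in blue and SIRT6-inhibited libraries in red, and circles for library 1 and squares for library 2. Red lies right of blue in SLC52A2, SLC6A6, SLC23A2, SLC4A4 and SLC26A6 and left of it in SLC31A2 and SLC30A1, and control library 1 had 0 counts of SLC52A2.

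By edgeR's test of the 51 carriers over all 4 libraries, SLC6A6 was the only amino acid carrier called. SLC7A3, a carrier of arginine and other cationic amino acids known as CAT3, had 104 and 96 counts in the controls and 32 and 14 in the SIRT6-inhibited libraries. Both SIRT6-inhibited libraries were lower in normalized level than both controls. The log2 fold change was -1.95 with a standard error of 1.00 and an unadjusted p-value of 0.0956. By edgeR's test this was 0.0306 when no library was allowed fewer than 10 counts of a gene, and 0.131 with the replicate block. With a library left out, the log2 fold change ranged from -3.08 to -1.31. Its relative SLC7A1, or CAT1, had 43.4 and 32.6 normalized CPM in the controls and 49.4 and 43.7 in the SIRT6-inhibited libraries, with a log2 fold change of 0.29 and a standard error of 0.46. SLC1A1, a carrier of glutamate and aspartate, had 54 and 17 counts in the controls and 76 and 43 in the SIRT6-inhibited libraries, and its groups overlapped in normalized level. SLC3A1 had a log2 fold change of 0.05 ± 0.23 (SE) and an estimate of -0.0021 with library totals as the only scaling. SLC6A8, the creatine carrier, had 30 and 65 counts in the controls and 0 and 26 in the SIRT6-inhibited libraries, so it was present in control oocytes only.

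SLC38A2, a sodium-coupled carrier of small neutral amino acids, had 0 and 82 counts in the controls and 25 and 39 in the SIRT6-inhibited libraries. Its controls differed from each other by more than the groups did, so no direction could be given. Among the 10 amino acid carriers tested, 4 had higher and 6 lower estimates, or 3 and 7 with library totals as the only scaling. With TMM factors, 52.8% of all tested genes had lower estimates.

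Of the 4 carriers of vitamins, choline and inositol tested, SLC23A2 and SLC52A2 were called higher, where 3.06% of all tested genes were. SLC52A2 passed the filter only through the SIRT6-inhibited group. SLC23A2, the sodium-coupled carrier of ascorbate known as SVCT2, had 53.5 and 49.0 normalized CPM in the controls and 86.0 and 86.4 in the SIRT6-inhibited libraries. Libraries of each group were close together and the groups did not overlap. The log2 fold change was 0.75 with a standard error of 0.31 and an unadjusted p-value of 0.0476. It was above 0.05 with each library left out, at 0.128 without control library 1, 0.160 without control library 2, 0.121 without SIRT6-inhibited library 1 and 0.126 without SIRT6-inhibited library 2, and 0.113 in DESeq2's Wald test. With only genes of at least 10 counts in every library it was 0.0768, without a filter 0.0831, and with library totals as the only scaling 0.0612.

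SLC52A2, a riboflavin carrier, had 0 and 4 counts in the controls and 75 and 51 in the SIRT6-inhibited libraries. It passed the filter only through the SIRT6-inhibited group, so its call, which was lost without control library 1 and without SIRT6-inhibited library 1, is no support for a difference. SLC19A2, a thiamine carrier, was at 128 and 107 normalized CPM in the controls and at 84.1 and 94.9 in the SIRT6-inhibited libraries, with no overlap, a log2 fold change of -0.39 and a standard error of 0.27. SLC46A1, the proton-coupled folate carrier, had 29 and 52 counts in the controls and 0 and 35 in the SIRT6-inhibited libraries. Its p-value was 0.491, and 0.0215 without SIRT6-inhibited library 2, which left the library with 0 counts to stand for its group.

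The 2 peptide carriers that were present lay on opposite sides. SLC15A1, or PEPT1, which takes up di- and tripeptides with protons at the cell surface, had 120.4 and 122 normalized CPM in the controls and 144 and 145 in the SIRT6-inhibited libraries. SLC15A4, which moves histidine and peptides out of lysosomes, had 150.4 and 137 normalized CPM in the controls and 114 and 113 in the SIRT6-inhibited libraries. In both carriers the groups did not overlap, and the unadjusted p-values were 0.316 and 0.197. Without the genes that passed the filter through only a single group, 17.6% of tested genes lay higher without overlap and 19.9% lower.

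Sugar carriers had few counts. SLC5A10, a sodium-coupled carrier of mannose and fructose known from the kidney, had 39 and 79 counts in the controls and 1 and 11 in the SIRT6-inhibited libraries. Both SIRT6-inhibited libraries were lower in normalized level, but it passed the filter only through the control group, so its p-values are no support for a difference. SLC37A4, the glucose-6-phosphate carrier of the endoplasmic reticulum, had 13 and 0 counts in the controls and 15 and 77 in the SIRT6-inhibited libraries. Its relative SLC37A3 had 68 and 16 counts in the controls and 28 and 16 in the SIRT6-inhibited libraries, and its groups overlapped. The intestinal glucose carrier SLC5A1 had 0 and 27 counts in the controls and 0 and 0 in the SIRT6-inhibited libraries, and it was not tested. SLC2A2, the glucose carrier of liver and islets, had 0 counts in every library, and SLC2A4, the insulin-regulated one, had 14 counts in control library 2 only.

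Monocarboxylate carriers bring pyruvate and lactate into the oocyte. SLC16A1, or MCT1, had 49.0 and 82.7 normalized CPM in the controls and 48.7 and 79.1 in the SIRT6-inhibited libraries. Libraries of each group differed by far more than the groups did, with a log2 fold change of -0.04 and a standard error of 0.42. SLC5A8, a sodium-coupled monocarboxylate carrier, had 10 and 82 counts in the controls and 42 and 95 in the SIRT6-inhibited libraries, and its groups overlapped.

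In the Golgi and endoplasmic reticulum, carriers of nucleotide sugars and acetyl-CoA supply glycosylation and acetylation. SLC35A3, a carrier of UDP-N-acetylglucosamine, had 27.6 and 33.8 normalized CPM in the controls and 10.9 and 32.5 in the SIRT6-inhibited libraries, with only library 1 apart from the rest. SLC33A1, the acetyl-CoA carrier, had 93.2 and 80.2 in the controls and 101 and 70.6 in the SIRT6-inhibited libraries, and its log2 fold change of -0.02 was higher than 0 with RLE size factors. The third one tested, SLC35C2, had a log2 fold change of -0.26 ± 0.73 (SE), and the groups overlapped in each of the 3. The summed level of the 5 listed carriers of this class was 139 and 145 normalized CPM in the controls and 138 and 119 in the SIRT6-inhibited libraries.

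SLC18A2, the carrier VMAT2 that loads monoamines such as serotonin into vesicles, had 3625 and 2465 counts in the controls and 2678 and 4122 in the SIRT6-inhibited libraries. In normalized level this was 782 and 693 in the controls and 831 and 858 in the SIRT6-inhibited libraries. These groups did not overlap, with a log2 fold change of 0.20, a standard error of 0.13 and an unadjusted p-value of 0.173. SLC17A1, a carrier of phosphate and urate in the kidney, had 135 and 109 normalized CPM in the controls and 166 and 103 in the SIRT6-inhibited libraries, and its groups overlapped. SLC35A4 had 27 and 106 counts in the controls and 158 and 117 in the SIRT6-inhibited libraries, so control library 1 stood apart.

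**Figure D5:**
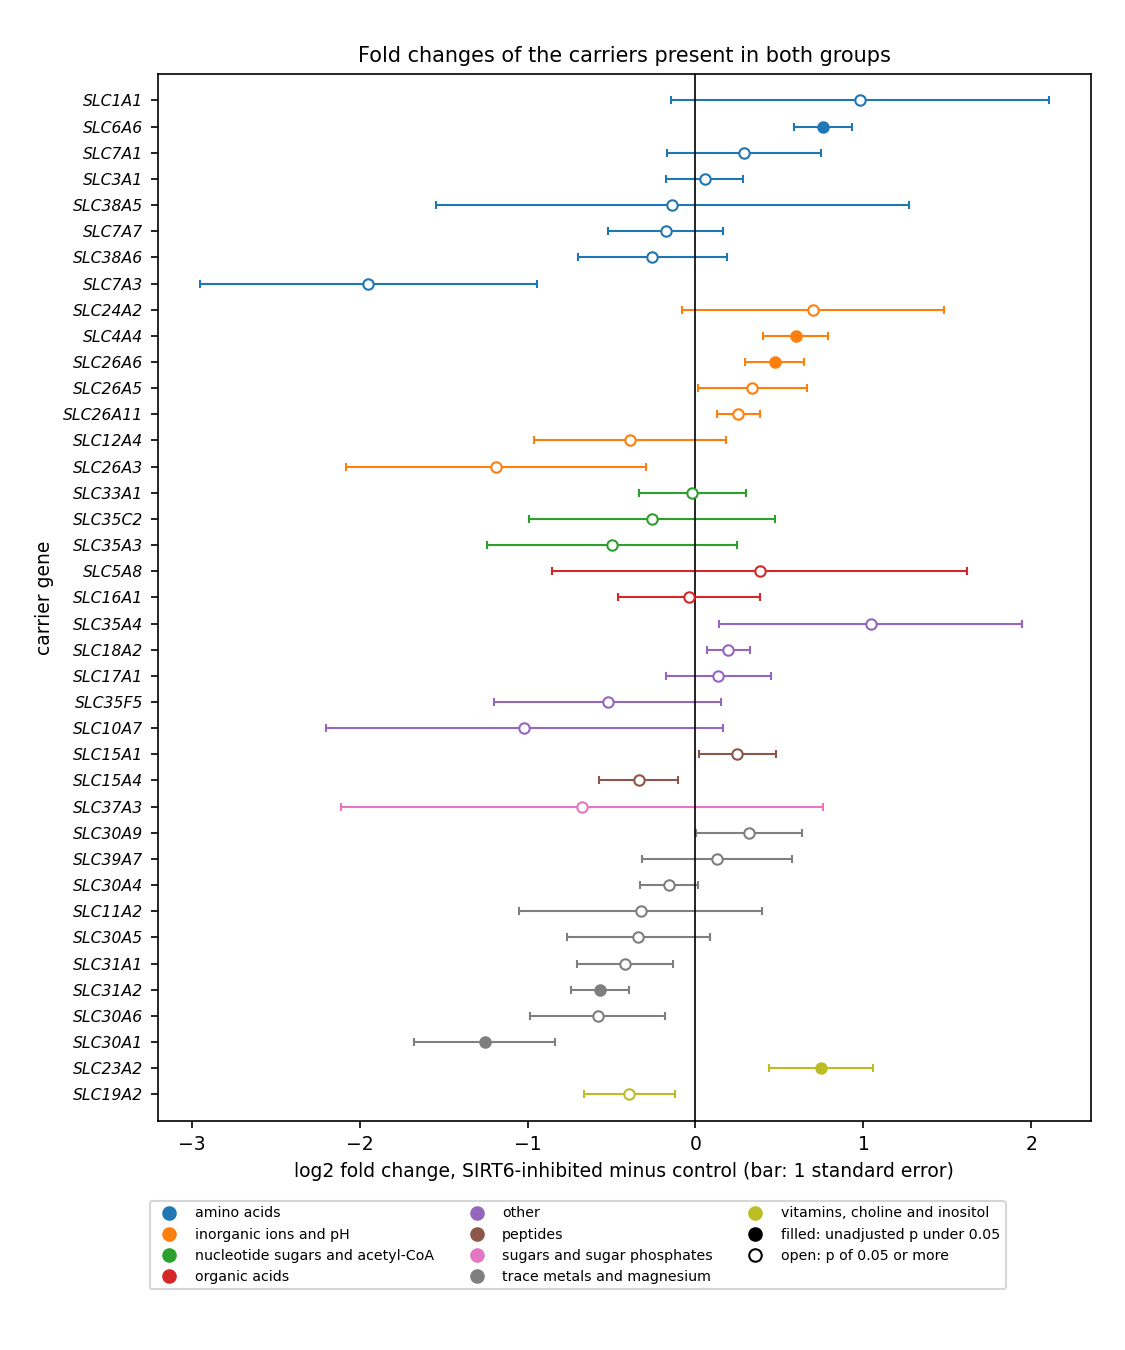
Points are the log2 fold changes, SIRT6-inhibited minus control, of 39 of the 40 carriers present in both groups. They have bars of 1 standard error and a colour for each substrate class, and are filled where the unadjusted p-value was under 0.05. The filled points of SLC6A6, SLC4A4, SLC26A6 and SLC23A2 lie right of 0, those of SLC31A2 and SLC30A1 left of it, and bars are widest for carriers with few counts such as SLC38A5 and SLC37A3.

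Carriers present in only 1 group were few and had low counts. SLC6A8, SLC5A10, SLC30A7 and SLC46A1 were present in control oocytes only, and SLC38A2, SLC37A4 and SLC52A2 in SIRT6-inhibited oocytes only. In 6 of these 7, one library of a group had 0 counts, and SLC5A10 had 1 count in SIRT6-inhibited library 1. Libraries of a group also differed in this way elsewhere. In 11 of the 88 genes, or 12.5%, a control library had 0 counts while the other had at least 10, against 7.19% of all listed genes. The SIRT6-inhibited libraries differed so in 11 genes, or 12.5%, against 9.68% of all listed genes. Control library 2 had counts for 59 of the 88 genes and control library 1 for 47, and the SIRT6-inhibited libraries had counts for 53 and 50.

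All 88 genes together took 0.497% and 0.521% of the counts of the control libraries and 0.540% and 0.501% of those of the SIRT6-inhibited libraries, so the groups overlapped. After scaling by TMM factors the 86 carriers summed to 4981 and 4984 normalized CPM in the controls and 5434 and 5187 in the SIRT6-inhibited libraries, without overlap. By place of work, 30 cell surface carriers were tested, and 15 estimates were higher and 15 lower. SLC6A6, SLC4A4, SLC26A6, SLC23A2 and SLC52A2, the 5 called higher, work at the cell surface, as does SLC30A1. SLC31A2 is the called carrier of an organelle. Over all tested genes, 3.06% were called higher and 5.99% lower. The call of SLC52A2, which passed the filter only through the SIRT6-inhibited group, is no support for a difference. Of the 16 organelle carriers tested, 6 estimates were higher and 10 lower, where 52.8% of all tested genes had lower estimates. SLC30A7, among these 10, and SLC5A10, among the 15 lower of the cell surface, passed the filter only through the control group.

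Carriers depend on pumps, chaperones and binding proteins, and 21 of 42 such genes looked for were listed. Of these, 10 were present in control oocytes and 11 were tested, with 6 higher and 5 lower estimates, and 1 of the 11, TFRC, had an unadjusted p-value under 0.05, where 9.05% of all tested genes had one. ATP1B1, the subunit that brings the sodium pump to the cell surface, had 22.7 and 35.4 normalized CPM in the controls and 11.2 and 8.12 in the SIRT6-inhibited libraries, with a log2 fold change of -1.59, a standard error of 0.80 and an unadjusted p-value of 0.0885. Both SIRT6-inhibited libraries were below both controls.

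TFRC, the transferrin receptor that brings iron into cells, had 67 and 11 counts in the controls and 0 and 0 in the SIRT6-inhibited libraries. It passed the filter only through the control group, and most of its counts were in control library 1, so its p-value is no support for a difference. For metals inside the cell, MTF1, a zinc-sensing transcription factor, had 78.8 and 88.9 normalized CPM in the controls and 69.2 and 66.2 in the SIRT6-inhibited libraries, with a log2 fold change of -0.31 and a standard error of 0.30. The metallothionein MT1A had 36 and 33 counts in the controls and 25 and 61 in the SIRT6-inhibited libraries, and its groups overlapped. FTL, a ferritin subunit that stores iron, had 1436 and 1706 normalized CPM in the controls and 1726 and 1835 in the SIRT6-inhibited libraries, above both controls, with an unadjusted p-value of 0.195. BSG, the chaperone of SLC16A1, had 285 and 323 normalized CPM in the controls and 338 and 363 in the SIRT6-inhibited libraries, with a log2 fold change of 0.21 and a standard error of 0.17.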

How the data were processed

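The values deposited by the authors were raw counts of reads on each gene symbol, whole and not normalized, for 4 libraries of M II oocytes sequenced with 150-bp paired-end reads. The submitters' processing notes name TopHat2 2.0.13, Cufflinks 2.2.1, Cuffnorm and Cuffdiff and both a mouse and a pig genome build, with no roles, and the counting tool, annotation and strand setting are not given in the sources used here. For this reason no coordinates are printed, and RefSeq's Sscrofa11.1 annotation served for names, all 88 of which matched, and for neighbouring genes. The labels name Smart-seq2 amplification, which the study's methods do not mention. Related genes or genes that overlap may share reads.

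Counts were analysed with edgeR 4.0.16 and DESeq2 1.42.0, with limma 3.58.1 loaded, in R 4.3.3. Genes were kept by filterByExpr (minimum count 10, minimum total 15), scaled by TMM factors on the totals of all listed genes, and compared over all 4 libraries with edgeR's quasi-likelihood test, two-sided, with Benjamini-Hochberg adjustment. The standard error is the size of the log2 fold change divided by the square root of the F statistic. The fit was tested on simulated data. No transcript lengths were used, so sums over genes and the ranking of genes by their counts compare reads and not molecules.

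The members and lists were chosen with earlier results of these data known. Named carriers are those with an unadjusted p-value under 0.05, the 2 with the highest control counts in each class among those present, the 5 higher and 5 lower with the smallest p-values among those without overlap, any at 0 counts in one group and at least 10 in both libraries of the other (none was found), and carriers known from oocyte physiology. The results of 1 carrier and 1 partner gene are not reported here. Other carriers named, and their placing at the cell surface or in organelles, were chosen after their values were seen, as was the move of SLC46A3 to the mixed class. Alternatives were RLE size factors, library totals only, no filter, DESeq2's Wald test, a block on the replicate number, a minimum of 10 counts in every library, other thresholds for presence, and leaving out each library.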

Additional observations from a re-analysis of the deposited data

How the results depend on the processing

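Among 293 refits of the 27 named carriers that were tested, 249 kept their direction and side of the threshold, 22 lost the call, 5 gained one and 17 reversed; the cause was not tested. Without a filter on low counts 1 of 66 carriers, SLC6A6, passed the Benjamini-Hochberg adjustment of edgeR's quasi-likelihood p-values, as did 1.47% of all genes. The library numbers give no known pairing, and deviations of same-numbered libraries correlated at -0.117. With the replicate block 5 carriers had an unadjusted p-value under 0.05, without SLC23A2 and SLC52A2, and the median log2 fold change was -0.036, where 7.37% of all tested genes were called and their median was -0.053, below that of the carriers. With the numbers crossed, added after seeing the data, 6 did, and the median was -0.037, against 10.1% and -0.051 over all tested genes. Both gave 0 adjusted calls of carriers, where 0.251% of all tested genes passed with the block and 0.0838% with the numbers crossed. Leaving out each library gave 2 to 8 unadjusted calls among 53 to 61 carriers, with 4.40% to 11.7% of all tested genes called, a median of -0.27 to 0.11, and 32 to 40 carriers of 51 without overlap between groups, where 66.3% to 71.3% of all tested genes had none. Reversed estimates were SLC33A1 (0.0018 with RLE size factors, 0.0020 in DESeq2), SLC3A1 (-0.0021 with library totals) and SLC38A2 (2.00 with the block, 1.92 with the numbers crossed). With a library left out, log2 fold changes ranged from -0.30 to 0.22 for SLC33A1, -1.52 to 0.41 for SLC37A3, -0.50 to 2.91 for SLC5A8, -0.43 to 0.38 for SLC16A1, -0.25 to 0.44 for SLC17A1, -1.54 to 8.07 for SLC38A2, -0.070 to 0.18 for SLC3A1 and -1.50 to 0.078 for SLC35A3. A lone library was assumed to vary like the other group. Leaving out a library could hardly lower the number of carriers without overlap, because groups apart stay apart with fewer libraries, except for changes in scaling. Carriers present in control numbered 44 at 5 counts, 39 at 20 counts and 43 at 3 CPM, where 51.0%, 43.7% and 46.9% of all listed genes were present; at 5 counts the 50.0% of the carriers was under that of all genes. Precision differed between carriers: SLC38A5, with 19 to 43 counts a library, had a standard error of 1.41 log2 units, and SLC6A6, with 763 to 1865, one of 0.17. The part of depth in this was not tested.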
